A study of Mus musculus with 6 samples.

Results

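The circular RNAs (circRNAs) described here come from genes of potassium, sodium, leak and TRP channels in the mouse hippocampus. A rule on gene symbols also took in genes of auxiliary subunits, anoctamins and chloride channels or exchangers. A circRNA is a transcript whose ends were joined by splicing backwards, so that it forms a ring, and the gene it is cut from is called its host. Members were all circRNAs that list a single host identifier whose GENCODE symbol begins with Kcn, Clcn or Nalcn, or with Scn, Hcn, Trpc, Trpm, Trpv or Ano followed by a digit. The rule found 149 of the 10652 circRNAs in the table and 48 of the 3675 hosts with a circRNA of their own. Of a near-identical Nalcn pair, mmu_circRNA003564 and mmu_circRNA003563, the levels differed by at most 16 steps of the library's scale in any library, and they may share reads. The pair was counted once, through mmu_circRNA003564, which leaves 148 circRNAs.

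The study compared 3 hippocampal libraries of mice under chronic unpredictable stress (CUS) with 3 Control libraries, all from adult male C57BL/6J mice aged 8 to 10 weeks on purchase. CUS mice met randomly ordered mild stressors for 4 weeks, and the labels name no genetic change in either group. The labels call the samples independent but do not tie each to 1 animal, so p-values reflect only how these libraries vary, which may be technical. The RNA was selected for poly(A) tails, per the labels' protocols, and rings have no tail, which limits the libraries as a sample of all rings. A level is 10 to the deposited value and has no named unit, and a 0 does not show that a ring was absent.

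Ion channels set how a neuron fires. Sodium channels open to start the action potential, potassium channels end it and set the gap to the next one, and leak channels such as NALCN and the two-pore potassium channels hold the resting potential from which all of this begins. TRP channels pass cations in response to signals from receptors, membrane lipids or temperature, and the anoctamins are calcium-activated chloride channels or move lipids between the leaves of the membrane. In the hippocampus, the balance of these currents shapes how granule and pyramidal cells respond to their inputs.

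Relative depth, the inverse of the library's step, was 90.8% to 100% of the deepest library in Control and 81.9% to 89.8% in CUS. By this measure every CUS library was shallower than every Control library, though what a step counts is unknown. Fewer circRNAs were above 0 in each CUS library, 3991 to 4273 against 4329 to 4606. The part of this gap in the differences given here was not tested. How many reads a value rests on is unknown. Channel circRNAs made up 1.06% to 1.54% of the summed level in Control and 1.18% to 1.41% in CUS. Between 60 and 67 channel circRNAs were above 0 in a Control library and between 59 and 65 in a CUS library. Among cell type markers, 7 of 8 neuronal, 4 of 9 astrocyte and 4 of 9 oligodendrocyte genes were hosts. None of 6 microglial and none of 5 choroid plexus markers had a circRNA, and of 5 vascular markers only Flt1 did. Defining markers without a circRNA of their own included Snap25, Slc17a7, Gad1, Gad2, Gfap, Aqp4 and Mog, so host genes are a thin check of the tissue.

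Hosts were mostly long genes of the channel families. GENCODE lists 155 protein-coding genes whose symbols match the rule, and 48 of them (31.0%) hosted a circRNA, against 16.0% of 21951 protein-coding genes. The median gene length was 180.0 kb for the channel hosts and 21.6 kb for the channel genes without a circRNA. Within bands of gene length under 300 kb the shares of hosts lay closer to those of all genes. Under 30 kb it was 4.41% of channel genes against 4.39% of all genes, from 30 to 100 kb it was 30.0% against 28.7%, and from 100 to 300 kb it was 57.1% against 51.6%. At 300 kb or more, 17 of 19 channel genes were hosts (89.5%), against 72.7% of all genes. These shares were not tested, since genes of a family are not independent.

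**Figure D1:**
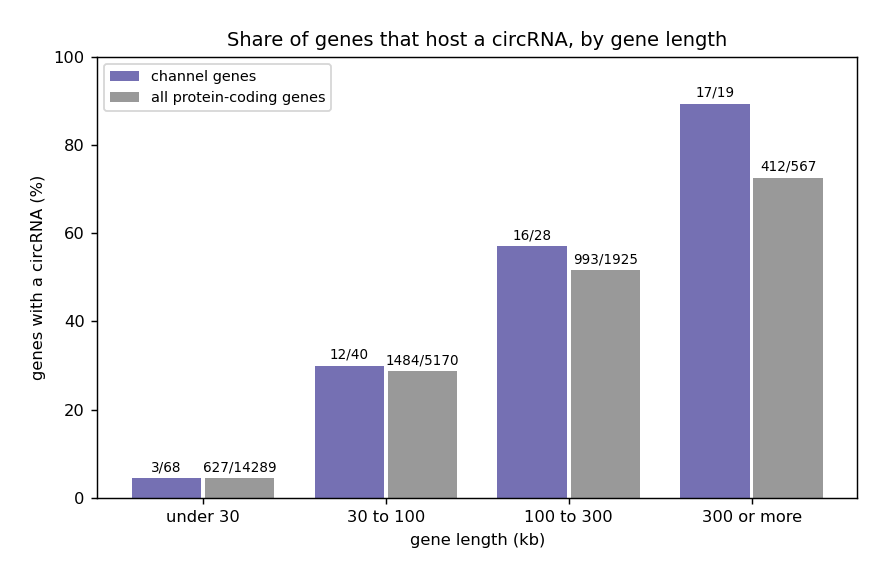
Share of genes (percent, vertical axis) with at least 1 circRNA of their own, by gene length in kb (horizontal axis), for channel genes and for all protein-coding genes; the numbers over the bars are hosts over genes. Channel genes run from 4.41% under 30 kb to 89.5% at 300 kb or more, beside 4.39% and 72.7% of all genes.

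Subfamilies also differed in gene structure. Of 44 channel genes with at most 2 coding exons, 3 were hosts (6.82%), against 45 of 111 with more coding exons (40.5%). Exon number went with gene length. Among channel genes without a circRNA, the median length was 11.8 kb with at most 2 coding exons and 28.7 kb with more. The share over all genes by exon number was not computed, and exon number was not separated from length. The Kcna genes, whose delayed rectifier and A-type channels are mostly encoded in a single coding exon, gave 1 host of 8, and its only circRNA, of Kcna6, was intronic. The inward rectifier genes (Kcnj) gave 1 host of 15, Kcnj6, which encodes a subunit of the G-protein-gated channels. In contrast, 4 of 5 KCNQ genes, both Kcnt genes, 3 of 4 Kcnc genes and 6 of 10 anoctamin genes were hosts. No Trpv, Kcnd, Kcng or Kcne gene hosted a circRNA under the rule. The median lengths of these genes were 27.8, 222, 33.8 and 5.74 kb, in that order.

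A few hosts held most of the channel circRNAs. Potassium channel genes gave 26 hosts with 72 circRNAs, anoctamins 6 hosts with 28, TRP genes 7 hosts with 23, voltage-gated sodium channel genes 6 hosts with 19 and Nalcn 1 host with 3. The 10 hosts with 5 or more circRNAs held 83 of the 148. Scn8a led with 12, followed by Ano4 and Kcnma1 with 11 each and Kcnh7 with 10, while 23 hosts had a single circRNA. Of the 148 circRNAs, 56 were above 0 in 1 library only (37.8%, against 36.9% of all circRNAs) and 14 in all 6 (9.46%, against 7.54%).

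Intronic rings were few and scattered. All 10 intronic channel circRNAs were above 0 in 1 library only, while 349 of all 470 intronic circRNAs were (74.3%). They included 3 of Kcnh7, 2 each of Ano4 and Kcnma1, and those of Kcna6 and Trpm3. The 3 of Kcnh7 all came from Control replicate 3, at 628, 590.5 and 537. None of the 14 channel circRNAs found in all 6 libraries was intronic.

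Differences between CUS and Control were tested with limma on log2(level + 45.5), across all circRNAs or all hosts that were above 0 in at least 3 of the 6 libraries. Of the 48 channel hosts 29 met that filter and of the 148 circRNAs 56 did. No channel host passed at an adjusted p under 0.05 (0 of 29), and none of all 2151 hosts did (0%). The lowest adjusted p among channel hosts was 0.716, by limma with Benjamini-Hochberg adjustment. At an unadjusted p under 0.05 there were 3 channel hosts of 29, among them Kcnma1 and Ano6, where 5.81% of all hosts reached it. Fitted values were higher in CUS for 14 channel hosts and lower for 15, with a median log2 difference of -0.15 beside -0.05 over all hosts. In 3 channel hosts every CUS library lay below every Control library (among them Nalcn and Trpm7), where 5.53% of all hosts did. The 1 not named was above 0 in Control alone, so that its lack of overlap was fixed by the filter. It is also among the 3 at an unadjusted p under 0.05. Of all 2151 hosts, 56 were above 0 in 1 group only. In 2 channel hosts every CUS library lay above (Kcnma1 and Ano6), where 5.86% of all hosts did. As shares of the 29, 3 hosts are 10.3% and 2 are 6.90%, so these counts rest on very few genes.

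**Figure D2:**
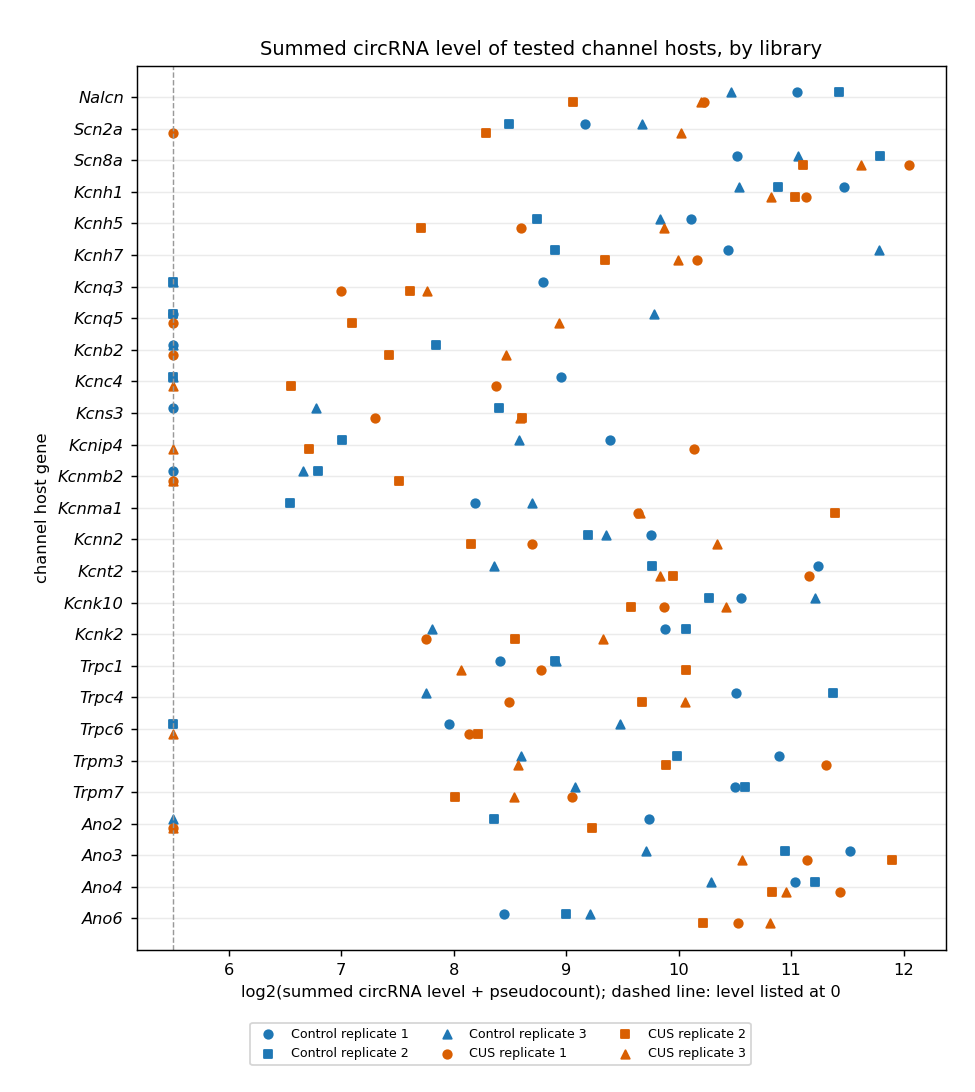
Summed circRNA level of 27 tested channel hosts (rows), as log2(level + 45.5) on the horizontal axis, with 1 point per library; blue points are Control, orange points CUS, marker shapes give the replicate, and the dashed line is a level listed at 0. Nalcn, Trpm7, Kcnma1 and Ano6 show no overlap between the groups, while the points of the other 23 rows are mixed.

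Nalcn (chromosome 14, 123276634 to 123627144 on GRCm38, minus strand) encodes the pore of the sodium leak channel, a background current that depolarises neurons. Its summed level, in the order of replicates used throughout, was 2076, 2703 and 1369.8 in Control against 1156, 489.6 and 1133 in CUS. The lowest Control library stayed above the highest CUS library. The log2 difference was -1.15 with SE 0.58 (limma adjusted p = 0.899). Without CUS replicate 2, the library with the lowest level, it was -0.76.

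Not all Nalcn rings separated the groups. The paired ring mmu_circRNA003564 was at 1214, 1417 and 907 in Control and at 584, 371 and 394 in CUS, and its groups did not overlap. Its partner mmu_circRNA003563 was at 1176, 1377 and 896 against 607, 360.4 and 383. mmu_circRNA003566 overlapped, at 678, 595 and 463 in Control against 572, 118 and 739 in CUS. mmu_circRNA003567 was at 183, 691 and 0 in Control but 0 throughout CUS. For mmu_circRNA003564 the log2 difference was -1.31 with SE 0.74 (limma adjusted p = 0.873), and for mmu_circRNA003566 it was -0.52 with SE 0.92 (limma adjusted p = 0.882). Whether the rings differ from each other in their response was not tested. In bulk tissue, fewer cells of a type and less RNA per cell cannot be told apart.

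Kcnma1 (chromosome 14, 23289431 to 24014491, minus strand) encodes the pore of the BK channel, a large-conductance potassium channel opened by calcium and voltage that shortens the action potential. Its summed level was 246, 47.9 and 369.7 in Control against 752, 2647 and 764 in CUS. In Control replicate 2 the 47.9 lay near that library's lowest level above 0, 42.9. All 3 CUS libraries lay above all Control libraries, with a log2 difference of 2.42 and SE 1.00 (limma adjusted p = 0.716). Without CUS replicate 2 the difference was 1.84. The number of Kcnma1 circRNAs above 0 was 1, 1 and 2 in Control against 4, 7 and 5 in CUS.

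CUS replicate 2 held Kcnma1 rings found in no other library, while every library had channel rings of its own, from 6 to 13. Of the 11 Kcnma1 circRNAs 6 were above 0 in 1 library only, and 5 of those were in CUS replicate 2, adding 1988 to its sum. They were mmu_circRNA003195 at 446, mmu_circRNA003201 at 390.0, mmu_circRNA003203 at 430.3 and the intronic mmu_circRNA003202 and mmu_circRNA003205 at 570.2 and 151. There mmu_circRNA003195 and mmu_circRNA003203 were 6 steps apart, and mmu_circRNA003203 and mmu_circRNA003201 were 15 steps apart. Such close rings may share reads, but they were counted separately. With the rings found in a single library set aside, CUS replicates 1 and 2 were at 610.3 and 659, and the other 4 libraries kept their sums. mmu_circRNA003197 was the only Kcnma1 ring above 0 in all 3 CUS libraries, at 162, 519 and 196, against 0, 47.9 and 0 in Control. Its log2 difference was 2.40 with SE 1.25 (limma adjusted p = 0.873).

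The other Kcnma1 rings had mixed patterns. mmu_circRNA003198 was at 246, 0 and 0 in Control against 366, 0 and 166 in CUS. mmu_circRNA003196 was at 0, 0 and 210.1 against 82.5, 0 and 204. mmu_circRNA003200 was at 0 throughout Control but at 0, 139.9 and 136 in CUS, mmu_circRNA003199 at 0, 0 and 159.6 against 0, 0 and 62.5, and mmu_circRNA003204 at 142 in CUS replicate 1 only. Kcnmb2, the beta subunit gene that gives BK channels fast inactivation, had 1 circRNA at 0, 65.6 and 55.9 in Control against 0, 137 and 0 in CUS, with overlapping groups.

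**Figure D3:**
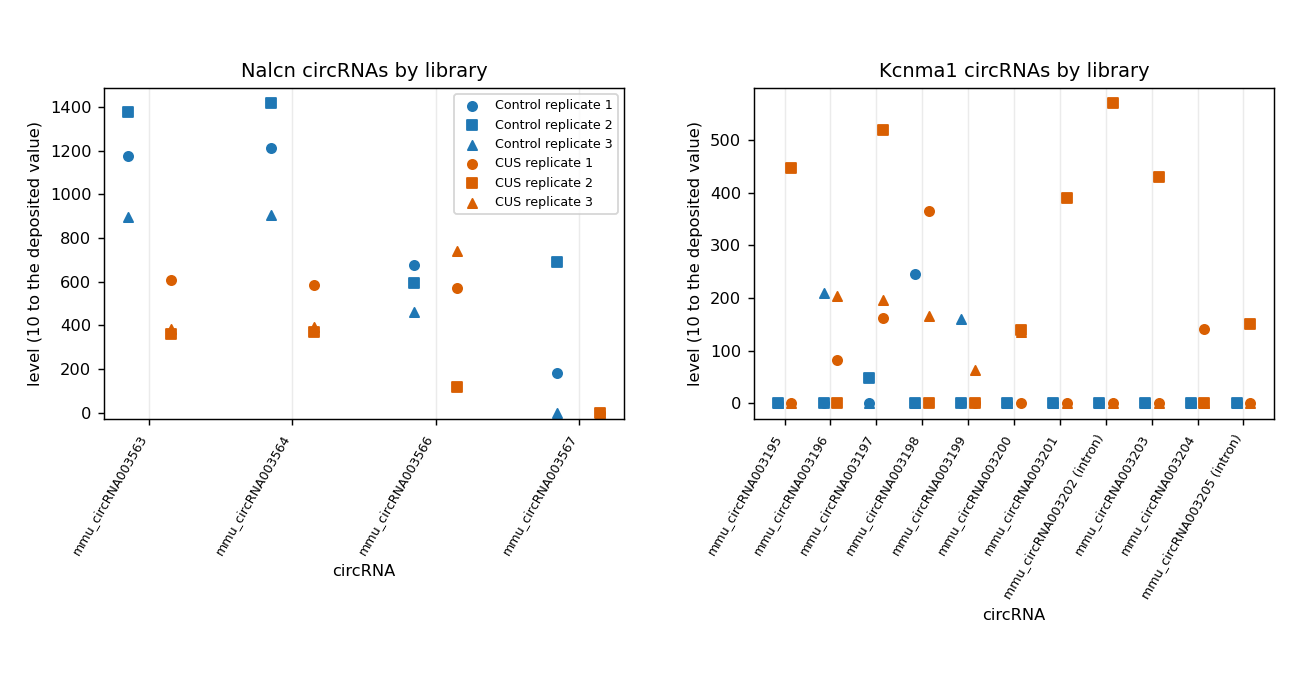
Level of each Nalcn circRNA (left) and each Kcnma1 circRNA (right) in every library, as 10 to the deposited value; blue is Control, orange is CUS, and marker shapes give the replicate. The Nalcn pair lies at 896 to 1417 in Control and 360.4 to 607 in CUS, and 5 Kcnma1 circRNAs are above 0 in CUS replicate 2 only.

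Voltage-gated sodium channel hosts were led by Scn8a (chromosome 15, 100869858 to 101045938), which encodes Nav1.6, the main sodium channel at the axon initial segment and nodes. The Scn8a sum was 1424, 3487 and 2091 in Control against 4189.5, 2154 and 3109 in CUS, and the groups overlapped. The log2 difference was 0.47, with a 95% confidence interval of -0.43 to 1.37. Single Scn8a rings had different patterns. mmu_circRNA004029 was at 620.4, 797 and 553 in Control against 327, 110.3 and 321 in CUS, with no overlap, while mmu_circRNA004020 was at 65.2, 1031 and 662 against 1315, 901 and 1207. The former made up 43.6%, 22.8% and 26.5% of the Scn8a sum in Control and 7.81%, 5.12% and 10.3% in CUS. This ring was picked out after its values were seen, and its log2 difference of -1.33 with SE 0.95 had a limma adjusted p of 0.873.

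**Figure D4:**
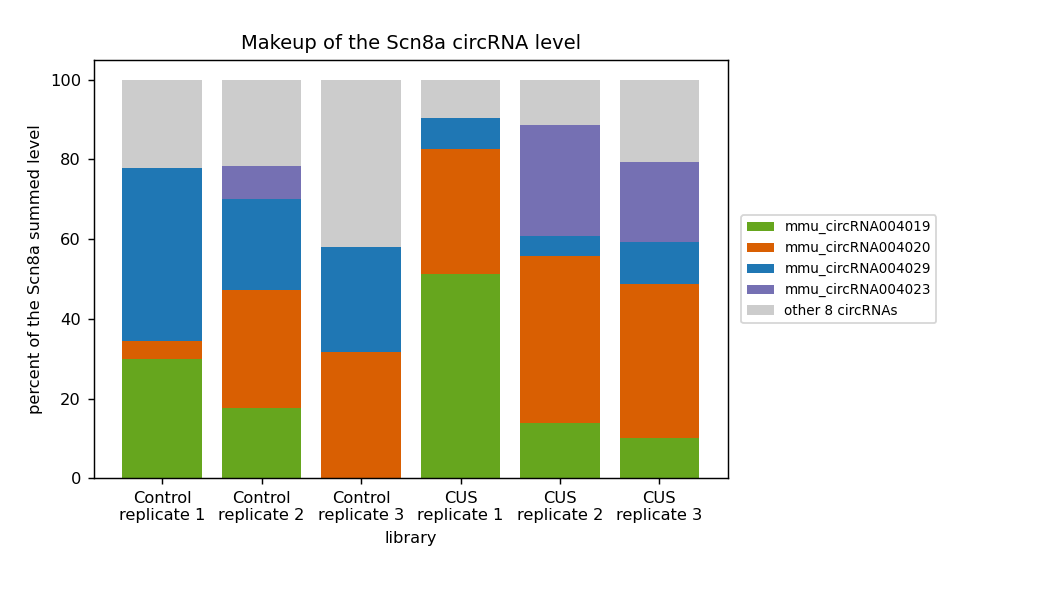
Makeup of the summed Scn8a circRNA level in each library, in percent of that library's sum, for 4 circRNAs and the other 8 together. mmu_circRNA004029 takes 22.8% to 43.6% in the Control libraries and 5.12% to 10.3% in the CUS libraries.

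The other voltage-gated sodium channel hosts had lower mean levels than Scn8a. Scn2a, which encodes Nav1.2 of early axons and dendrites, was at 531, 315 and 771 in Control against 0, 266 and 995 in CUS. Scn1a, the Nav1.1 gene of fast-spiking interneurons, was above 0 in 1 library of each group, at 287 and 189. Scn9a was at 504 in CUS replicate 1 only.

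Of the 4 ether-a-go-go and related potassium channel hosts (Kcnh), all but Kcnh8 were above 0 in every library. Kcnh1, the EAG1 gene, was at 2798, 1843 and 1444 in Control against 2193, 2049 and 1767 in CUS, with a log2 difference of 0.03 and a 95% confidence interval of -0.94 to 0.99. Its ring mmu_circRNA000816 ran from 567 to 1639 in Control and from 79.6 to 1337 in CUS. Kcnh7, an ERG-type gene, was at 1347, 434 and 3471 against 1103, 605 and 976, and the high value in Control replicate 3 included 1756 from its 3 intronic rings. Kcnh5, the EAG2 gene, was at 1057, 383 and 869.8 against 342, 164 and 892. Its ring mmu_circRNA002445 was at 1057, 108 and 572 in Control against 0, 0 and 103 in CUS, just without overlap, with a log2 difference of -2.80 and SE 1.37 (limma adjusted p = 0.851).

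Kcnq3 and Kcnq5 encode subunits of the M-current channels, which brake repetitive firing and are closed through muscarinic receptors. Kcnq3 was at 398, 0 and 0 in Control against 82.5, 151 and 171 in CUS. Kcnq5 was at 0, 0 and 835 against 0, 91.5 and 446, and Kcnq1 was at 758 in Control replicate 1 only. Kcnq3 and Kcnq5 both overlapped between groups.

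Among the other voltage-gated potassium hosts, Kcns3, a modifier subunit gene, was at 0, 292 and 63.8 in Control against 112, 344 and 339.8 in CUS. Kcnb2 was at 0, 184 and 0 against 0, 126 and 307, and Kcnc4 at 451, 0 and 0 against 286, 48.4 and 0. Kcnc1, a gene of the fast Kv3 channels, was at 237, 0 and 199 in Control but 0 throughout CUS, and was not tested because only 2 libraries were above 0. Kcnip4, a calcium-binding auxiliary subunit gene of Kv4 channels, was at 625, 83.2 and 338 against 1082, 59.2 and 0. Its relative Kcnip3 was at 508 and 106 in CUS replicates 2 and 3 and listed at 0 in Control.

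The other tested hosts of channels opened by intracellular ions, Kcnt2 and Kcnn2, overlapped between groups. Kcnt2, a sodium-activated potassium channel gene, was at 2366, 824 and 282 in Control against 2241, 947 and 869.8 in CUS. Of its 7 circRNAs mmu_circRNA000555 was in every library, at 1338, 524 and 282 against 1409, 557 and 136. Kcnn2, which encodes the calcium-activated SK2 channel behind the afterhyperpolarisation, was at 821, 539.6 and 609 against 369, 239 and 1256.

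Both tested two-pore potassium hosts had a lower mean in CUS, within their spread. Kcnk10, the TREK-2 gene, was at 1456, 1188 and 2322 in Control against 890.2, 718 and 1324 in CUS, where only CUS replicate 3 reached into the Control range. Its log2 difference was -0.72 with a 95% confidence interval of -1.92 to 0.47. Kcnk2, the TREK-1 gene, had 1 circRNA, mmu_circRNA000791, at 893, 1026 and 178 in Control against 171, 328 and 595 in CUS. Neither passed the test, with limma adjusted p-values of 0.917 for both.

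Trpm7 (chromosome 2, 126791565 to 126876230, minus strand) encodes a magnesium- and zinc-permeable channel fused to a kinase. Its sum was 1403, 1498 and 495 in Control against 486, 212 and 326 in CUS, so that Control replicate 3 stayed just above CUS replicate 1. The log2 difference was -1.52 with SE 0.87 (limma adjusted p = 0.917). The number of its rings above 0 was 4, 3 and 2 in Control against 2, 1 and 2 in CUS, and 4 of its 7 rings were above 0 in a single library. The ring found in all libraries, mmu_circRNA006311, overlapped, at 384, 562 and 210.1 against 315, 212 and 190.3.

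The remaining TRP hosts overlapped between groups. Trpm3, a steroid- and heat-sensitive channel gene, was at 1854, 971 and 343 in Control against 2500.1, 904 and 334 in CUS, a wide range inside both groups. Trpc4, a receptor-operated channel gene, was at 1415, 2602 and 170.2 against 315, 772 and 1022, and Trpc1 at 295, 434 and 436 against 392, 1025 and 223. Within Trpc1, mmu_circRNA010816 was at 0, 0 and 218 in Control against 242, 667 and 223 in CUS, so that Control replicate 3 and CUS replicate 3 were almost level. Trpc6 was at 203, 0 and 670.2 against 236, 253 and 0. Trpc5 was at 444 and 548 in Control replicates 1 and 3 and listed at 0 in CUS.

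Ano6 (chromosome 15, 95790843 to 95974751) encodes a calcium-activated lipid scramblase, which exposes phosphatidylserine on the cell surface and also passes ions. Its sum was 304, 466 and 548 in Control against 1429.8, 1143 and 1759 in CUS, with a wide gap between the groups. The group values were 439.5 ± 124 and 1444 ± 308 (SD, n = 3 each), and the log2 difference was 1.63 with SE 0.73 (limma adjusted p = 0.729). With 1 library left out at a time the difference ran from 1.41 to 1.79. mmu_circRNA003973 was at 0, 234 and 458 against 734, 508 and 1375, without overlap, and mmu_circRNA003972 at 304, 0 and 0 against 696, 635 and 185. The limma adjusted p-values of these 2 rings were 0.861 and 0.873.

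The other anoctamin hosts overlapped between groups. Ano3 was at 2907, 1921 and 789.9 in Control against 2217, 3766 and 1468 in CUS, and Ano4 at 2054, 2327 and 1205 against 2718, 1775 and 1944. Both are regarded as scramblases, and their log2 differences were 0.48 (95% confidence interval -0.57 to 1.52) and 0.23 (-0.75 to 1.21). Of the 8 Ano3 rings mmu_circRNA006212 did not overlap, at 0, 0 and 255 in Control against 575, 285 and 419 in CUS (log2 difference 2.42, SE 1.33, limma adjusted p = 0.873). Ano2, a calcium-activated chloride channel gene, was at 809, 282 and 0 against 0, 554 and 0. Ano1 and Ano10 were above 0 in 1 library each.

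**Figure D5:**
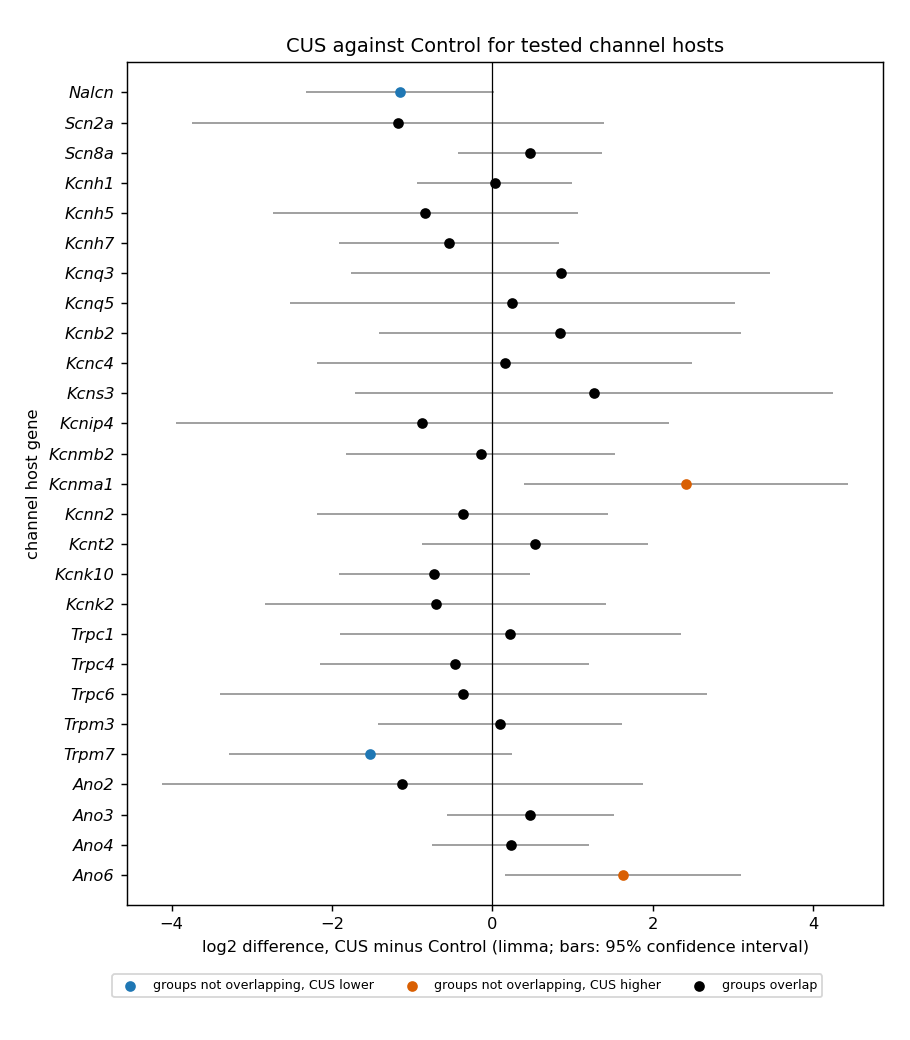
Difference between CUS and Control for 27 tested channel hosts, as log2 of the summed level plus 45.5 (points, horizontal axis) with 95% confidence intervals from limma (bars); blue points are hosts whose CUS libraries all lay below Control, orange points those all above, black points overlap. Kcnma1 and Ano6 have intervals that leave out 0 before adjustment, and no adjusted p is under 0.716.

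Summed levels of some marker lists also did not overlap between the groups, but these lists hold few hosts. Among all tested hosts, 5.53% were without overlap with CUS lower and 5.86% with CUS higher. Those are shares of single hosts, and no such share was computed for sums over several hosts. Oligodendrocyte marker hosts summed to 1374, 1523 and 1758 in Control against 2989, 2039 and 2471 in CUS. Of these 4 hosts only Slc44a1 was without overlap by itself, and barely so, at 444, 0 and 556 against 1427, 557 and 598, while Prr5l had the lower fitted value in CUS. Astrocyte marker hosts summed to 1415, 1525 and 1085 against 2642, 2243 and 1709.7, but the only one of 4 without overlap by itself, Gpc5, went the other way, at 377, 1056 and 801 against 348, 296 and 179. Dentate granule markers, of which 3 of 7 were hosts, summed to 2233, 2919.7 and 1527 against 5489, 5032 and 3993, and of these Rfx3 alone did not overlap, at 1195, 1788 and 1426 against 4395, 2910.2 and 3158. Dock10 overlapped, at 1038, 1036 and 101 against 1094, 2122 and 296. Prox1 was at 95.8 in Control replicate 2 and at 538 in CUS replicate 3 only. CA pyramidal markers, of which only Tenm3 and Cpne4 were hosts, summed to 3942, 3926 and 6936 against 2084, 2676 and 2362, nearly all of it from Tenm3. The sums of neuronal markers overlapped, at 9669 to 13492 against 13082 to 16859.9, as did those of excitatory neurons, at 141 to 1799 against 500.2 to 1307, and of interneurons, at 1947 to 4428 against 1737 to 6232. The part of these markers in the differences of Nalcn, Trpm7, Kcnma1 and Ano6 was not tested.

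Of the 56 channel circRNAs tested, 0 passed at an adjusted p under 0.05 with limma, as did 0% of all 3895, and the lowest adjusted p was 0.579. Before adjustment 1 of the 56 had a p under 0.05, where 6.01% of all circRNAs did. In 4 of the 56 every CUS library lay below every Control library (among them mmu_circRNA003564 of Nalcn, mmu_circRNA002445 of Kcnh5 and mmu_circRNA004029 of Scn8a), where 5.06% of all circRNAs did. The 1 not named was above 0 in Control alone, so that its lack of overlap was fixed by the filter. It is also the 1 with a p under 0.05. Of all 3895, 167 were above 0 in 1 group only. In 4 of the 56 every CUS library lay above (mmu_circRNA003197 of Kcnma1, mmu_circRNA003973 of Ano6, mmu_circRNA006212 of Ano3 and mmu_circRNA010816 of Trpc1), where 5.78% of all did. Fitted values were higher in CUS for 26 and lower for 30, with a median log2 difference of -0.14 beside -0.12 over all circRNAs.

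The channel rings of highest mean level overlapped between the groups, apart from the Nalcn pair and the Ano6 ring mmu_circRNA003973. mmu_circRNA005421 of Trpm3 was at 1854, 971 and 226 in Control against 1946, 441 and 334 in CUS. mmu_circRNA002560 of Kcnk10 was at 1371, 693 and 1101 against 772, 288 and 1155. mmu_circRNA004019 of Scn8a was at 425, 615 and 0 against 2149, 301 and 313, where CUS replicate 1 alone was high. mmu_circRNA006211 of Ano3 was at 519, 535 and 223 against 587, 1705 and 119.6, with CUS replicate 2 the highest.

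The 19 channel hosts that were not tested had a level in 1 library (12 hosts) or in 2 (7 hosts), from 69.9 to 758. Those not given above included Kcnc2, a Kv3 gene, Kcnh8, Kcnj6, Kcnk1, Kcnt1, Kcna6, Kcnab2, Trpm4 and Clcn4. Kcnj6 was at 672 in CUS replicate 1, Kcnt1 at 739.6 in CUS replicate 2 and Kcnc2 at 579.8 in Control replicate 3. Ano1 was at 598 in CUS replicate 3 and Ano10 at 575 in Control replicate 2. In CUS alone were also Kcna6 at 511 and Kcnh8 at 366, both in replicate 2, and Kcnk1, a two-pore gene, at 313 in replicate 1. The others had a level in 1 library of each group, at 75.6 and 304 for Trpm4, a calcium-activated cation channel gene, at 159 and 105 for Clcn4, a chloride-proton exchanger gene, and at 121 and 69.9 for Kcnab2, a beta subunit gene. At this depth, values above 0 in a single library do not separate the groups.

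Partner genes of these channels were read from a list of 44 genes for accessory subunits, anchors and calcium sources, of which 27 were hosts and 21 were tested. None passed (0 of 21, limma), with 7 fitted higher and 14 lower in CUS and a median log2 difference of -0.22 beside -0.05 over all hosts. Unc79 and Unc80, the large accessory proteins of the NALCN channel, were at 1649, 797 and 811 in Control against 2506, 871 and 2204 in CUS, and at 958, 857 and 378 against 242, 1224 and 614. Both overlapped, as did Fam155a, another subunit gene of that channel, at 531, 182 and 2426 against 386, 342 and 538. Whether these partners differ from Nalcn in their response was not tested. Dpp6, a Kv4 auxiliary subunit gene, was at 1386, 837 and 918 against 1907, 619 and 563. Its relative Dpp10 was at 0, 0 and 79.8 against 73.7, 567.5 and 389, with overlapping groups and a limma adjusted p of 0.917.

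Of the 21 tested partners 3 did not overlap between groups, Cacna1a and Cacna1d with CUS lower and Cntnap2 with CUS higher, where 5.53% and 5.86% of all hosts lay so. Cntnap2, which clusters potassium channels along the axon, was at 0, 90.8 and 154 against 666, 616 and 359 (limma adjusted p = 0.917). Cacna1a, the P/Q-type gene, was at 3390, 3807 and 3788 in Control against 2577, 2843 and 2647 in CUS, with a log2 difference of -0.44 (limma adjusted p = 0.917). Cacna1e was at 1709, 2501 and 848 against 2249, 1665 and 1862. Cacna1d was listed at 0 in all CUS libraries and at 198, 1326 and 1333 in Control (limma adjusted p = 0.716), and it passed the filter through Control alone, so that its lack of overlap was fixed by the filter.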

How the data were processed

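The authors deposited 1 table with 1 value per circRNA and library, which the values show to be log10 levels, with 0 where no level is listed. Below 300 steps, 10 to the value lay within 0.05 of a whole multiple of a library's own step for 100% of values. No source used here says what a step counts, so no count test was run. The submitters' processing notes name mm9, StringTie, DESeq and edgeR without a role, and no source used here names the circRNA caller. The libraries kept strand and carried molecular identifiers, per the labels' protocols.

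Host symbols and gene positions came from GENCODE vM21 (GRCm38). Positions are those of the gene, and ring positions and sequences were not used here. Sums per host took circRNAs with 1 host identifier, which left out 6 that list a channel gene beside another. Besides the Nalcn pair, rings at most 40 steps apart and above 0 in the same libraries were found for other hosts. These were Kcnt2, Scn8a, Ano2, Kcnma1, Kcnh7 and Ano4. Their rings may share reads and were kept as separate circRNAs. The pseudocount of 45.5 is the median of the libraries' lowest levels, and it makes differences of low values look smaller. limma 3.58.1 (R 4.3.3, eBayes with a trend) was fitted on all circRNAs or hosts above 0 in at least 3 libraries, with Benjamini-Hochberg adjustment. It was also tested on data simulated from hosts above 0 in all 6 libraries. That simulation did not cover circRNAs or hosts with several values listed at 0. Tables used Python 3.11.15, numpy 2.4.6 and pandas 2.3.3, and figures matplotlib 3.10.9.

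Named were the channel hosts tested, circRNAs at an unadjusted p under 0.1, the 10 of highest mean, every Nalcn and Kcnma1 circRNA, and partner hosts at an unadjusted p under 0.1 or among the 4 of highest mean. Rings without overlap between groups, Cntnap2, Unc80, Fam155a and single marker hosts were added after their values were seen. Members and lists were chosen with earlier results of these data known. A few channel genes that count among the members are not reported here by name.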

Additional observations from a re-analysis of the deposited data

Results flagged for a closer look

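A ring outside the channel comparisons had a level above every Control library. mmu_circRNA000069, which lists Gm7658 beside the M-current gene Kcnq5, was at 364 in CUS replicate 3 and at 0 in the other 5 libraries. It was left out by the rule of a single host identifier, and the difference was not tested. Of all circRNAs, 643 were above 0 in CUS replicate 3 only, so a level in that library alone was common.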

How the results depend on the processing

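No circRNA and no host, in the channel families or in the whole table, had a limma adjusted p under 0.05 under any of the 17 alternatives for hosts or the 16 for circRNAs, which the reassignment of rings with several host identifiers cannot change. The lowest adjusted p was 0.192 for hosts (no variance trend) and 0.330 for circRNAs (0.2 times the pseudocount). The 12 tracked log2 differences (5 hosts, 7 rings) were picked for an unadjusted limma p under 0.1 in these same data. They kept their sign in all 183 alternative values, but several alternatives cannot change a log2 difference. These include the fit without a variance trend, the replicate block and the changed filters, so that part of this result was fixed in advance. At an unadjusted p under 0.05 the 3 channel hosts became 1 without Control replicate 1, Control replicate 2 or CUS replicate 2, 2 without CUS replicate 1 or 3, and 5 without Control replicate 3. Over all hosts 125 became 75 to 99 with a library left out, and over all circRNAs 234 became 93 to 135. The Nalcn difference ran from -1.41 to -0.76 and that of Kcnma1 from 1.72 to 2.86. Same-numbered libraries did not deviate together (correlations of -0.01 to -0.07), and with the replicate number as a block 0 hosts and 0 circRNAs were called, 3 channel hosts and 1 channel circRNA being at an unadjusted p under 0.05. Depth in reads is unknown, so a 0 gives no upper limit. The lowest level above 0 was 41.0 to 45.2 in the Control libraries and 45.7 to 50.1 in the CUS libraries. Whether smaller levels were listed at 0 is not known.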

Other observations

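Rings that list a channel gene beside another gene were not counted among the channel circRNAs, though those above 0 in at least 3 libraries were part of the fit over all circRNAs. mmu_circRNA006014, which lists Kcnh7 with another identifier, was at 287, 691 and 192 in Control and had no value above 0 in CUS. It passed the filter through Control alone, so that its lack of overlap was fixed by the filter. mmu_circRNA006013, also of Kcnh7, was at 121, 169 and 314 against 0, 137 and 130.5, with overlapping groups. Rings found in 1 library alone made up 10.9% to 19.8% of the summed channel level of a library, where over all circRNAs they made up 14.1% to 15.2%.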
